A study of Mus musculus with 16 samples.

Results

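The level of 10 genes of cell quiescence was followed across 8 groups of serum-starved mouse fibroblasts. The genes were taken from the table by their symbols: Cdkn1b, Cdkn1c and Cdkn2c, Ccng2, Sesn3, Foxo1, Foxo3, Txnip, Ndrg1 and Gas1. They are 10 of the 21671 genes listed, and all 10 passed the filter on low values that left 13028 genes for testing. The study asked how Myc and YAP, with the tension of the cytoskeleton, control entry into the cell cycle. By the labels every cell was a mouse embryonic fibroblast with MycER, in which Myc is joined to the ligand-binding part of the estrogen receptor and stays inactive until 4-hydroxytamoxifen (OHT, 400 nM) is added. By their label, the YAP2S groups carry, in addition, a mutant of the co-activator YAP that lacks serines through which LATS kinases restrain it. Each population was left untreated, given OHT, given Y27632 (Y27, 50 µM), a small molecule that lowers actomyosin contraction, or given both. This makes the groups MycER, MycER OHT, MycER Y27, MycER OHT Y27, YAP2S, YAP2S OHT, YAP2S Y27 and YAP2S OHT Y27, with 2 libraries each and 16 in all. The labels do not say how the YAP mutant was delivered, whether a population was a clone, or whether the 2 libraries of a group were separate cultures, so the p-values measure the spread between these libraries only.

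Cells deprived of serum leave the cycle and hold themselves in a reversible arrest. When growth factor signalling through PI3K and AKT is low, FOXO transcription factors stay in the nucleus, where they switch on inhibitors of cyclin-dependent kinases (CDKs), guards against oxidative stress and regulators of metabolism. AKT phosphorylation moves FOXO proteins to the cytoplasm, so that their activity is set mainly on the protein and is not read directly from their own mRNA. Myc is known to oppose this program by repressing CDK inhibitors and by antagonizing FOXO at shared promoters.

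For 4 of the genes, among them Foxo3 and Txnip, which alone held a motif match, the stretches just upstream are shown. They are 250 bases long, run 5′ to 3′ along the gene's strand and end at the transcription start, as RefSeq places it on the build GRCm38.p6. The deposited values were made on an older build, mm9, and the coordinates of the builds were not combined. Capitals mark matches to the motifs searched.
Cdkn1b: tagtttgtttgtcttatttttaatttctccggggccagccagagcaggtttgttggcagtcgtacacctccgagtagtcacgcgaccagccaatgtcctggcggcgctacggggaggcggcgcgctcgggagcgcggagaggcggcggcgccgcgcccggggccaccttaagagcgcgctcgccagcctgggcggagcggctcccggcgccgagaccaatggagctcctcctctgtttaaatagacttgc
Ccng2: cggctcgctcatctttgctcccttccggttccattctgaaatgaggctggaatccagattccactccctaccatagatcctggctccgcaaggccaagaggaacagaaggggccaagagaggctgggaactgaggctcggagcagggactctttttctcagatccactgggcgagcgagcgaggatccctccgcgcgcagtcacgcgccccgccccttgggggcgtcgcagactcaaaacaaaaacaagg
Foxo3: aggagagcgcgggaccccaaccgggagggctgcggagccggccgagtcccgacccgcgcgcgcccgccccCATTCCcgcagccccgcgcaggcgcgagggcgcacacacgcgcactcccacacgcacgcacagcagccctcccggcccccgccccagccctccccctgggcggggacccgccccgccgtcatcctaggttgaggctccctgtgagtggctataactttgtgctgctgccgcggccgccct
Txnip: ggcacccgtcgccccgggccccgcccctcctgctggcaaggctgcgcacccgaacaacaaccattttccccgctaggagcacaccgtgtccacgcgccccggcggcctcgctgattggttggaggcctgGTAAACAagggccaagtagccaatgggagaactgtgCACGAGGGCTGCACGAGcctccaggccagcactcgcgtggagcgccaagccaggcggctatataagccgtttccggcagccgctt
The Cdkn1b stretch is chr6:134920151-134920400 on the plus strand, that of Ccng2 is chr5:93267323-93267572 on the plus strand, that of Foxo3 is chr10:42276696-42276945 on the minus strand, and that of Txnip is chr3:96557707-96557956 on the plus strand. Promoter sequences were found for 8 of the 10 genes, in 9 stretches, since Cdkn2c has 2 starts. Both strands were searched for GTAAACA, the core of a FOXO site, CACGTG, the E-box bound by Myc and Max, GGAATG, the hexamer of TEAD factors, and the carbohydrate response element, a pair of E-box-like motifs bound by MondoA and ChREBP with Mlx. Of all 32851 stretches of this length, 3.17% held the FOXO core, 6.02% the E-box, 12.6% the TEAD hexamer and 0.0457% the carbohydrate response element. Txnip, whose induction by glucose through such elements is textbook knowledge, held the FOXO core from 121 to 115 bases before its start and the carbohydrate response element from 85 to 69 bases before it. Foxo3 held the TEAD hexamer on the opposite strand, from 180 to 175 bases before its start. The other 6 genes with a sequence held no match to these letters in these windows. The matches describe the sequence only.

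Values are RPKM, reads per kilobase of gene and per mega (M) reads of the library. The libraries held 1.76 to 15.7 M reads by the steps of their low values, with MycER replicate 1 the shallowest at 1.76 M and MycER OHT Y27 next at 3.63 and 2.62 M. The highest value of any gene fell from 663 RPKM in the shallowest library to 119 RPKM in the deepest of 15.7 M, so that the range of high values differed with depth. The median log2 change of all tested genes was away from 0 in several comparisons and is given beside the counts. A call is an adjusted p under 0.05 in limma, and 57 of the 87 calls on these genes, over 19 comparisons, also passed in the same direction under all 5 other scalings. Of 12 fibroblast markers, Col1a1, Vim, Fn1 and S100a4 were abundant (means of 143, 182, 106 and 125 RPKM), while Pdgfra, Thy1, Dcn and Lum were near 0 (0.184, 0.0906, 0.425 and 0.00239 RPKM). The defining markers Ptprc and Emr1 of macrophages (0.031 and 0.00148 RPKM), Krt5 and Epcam of epithelium (0 and 0.0167) and Pecam1 and Cdh5 of endothelium (0.203 and 0.0147) were at or near 0. Some listed markers were not, Cd14 and Cd68 of macrophages (25.0 and 6.66), Tubb3 and Map2 of neural cells (40.8 and 4.14) and Acta1 of muscle (6.09). The other listed macrophage, epithelial, endothelial, adipocyte, muscle and neural markers had means below 1 RPKM. In bulk RNA, fewer cells of a type and less RNA per cell cannot be told apart.

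The labels of the OHT-treated libraries went against a gene that separated the untreated populations. Bex1 was at 0.245 RPKM in MycER and 0.17 in MycER Y27, but at 16.04 in YAP2S and 18.1 in YAP2S Y27. With OHT it was at 19.4 in the libraries labelled MycER OHT and 7.56 in those labelled MycER OHT Y27, against 0.74 in those labelled YAP2S OHT and 0.345 in those labelled YAP2S OHT Y27. Ctgf and Cyr61, both YAP targets, were lower with Y27 in 3 labelled pairs and higher in the other. Ctgf was at 155 RPKM in MycER and 12.7 in MycER Y27, at 93.9 in YAP2S and 62.5 in YAP2S Y27, and at 111 in YAP2S OHT and 16.9 in YAP2S OHT Y27, but at 63.9 in MycER OHT against 149.9 in MycER OHT Y27. Cyr61 was at 296 and 68.0 RPKM, 123 and 106, and 149.6 and 55.0 in the first 3 pairs, but at 100.4 in MycER OHT against 275 in MycER OHT Y27. The Y27 labels of the MycER OHT libraries therefore also go against these genes, and each direction between these 2 groups is that of the libraries so labelled. Yap1 did not set the YAP2S labels apart. It was at 21.6 RPKM in MycER and 23.8 in YAP2S, and at 20.8 in MycER Y27 and 24.5 in YAP2S Y27. With OHT it was at 26.5 in MycER OHT and 21.9 in YAP2S OHT, and at 24.1 in MycER OHT Y27 and 26.6 in YAP2S OHT Y27. Without treatment, Ctgf and Cyr61 were lower in YAP2S than in MycER. Bex1 was picked with earlier results of these data known. Groups are named by their labels, each direction between a library with OHT and one without is that of the libraries so labelled, and the average over OHT, 8 libraries against 8, is given for each gene because it does not depend on which population, or which Y27 label, a treated library had. The comparisons among the 8 libraries without OHT use none of the treated libraries. Bex1 shows that the population labels with and without OHT disagree, but not which of them are right. Directions between the populations without OHT are therefore also those of the libraries so labelled.

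**Figure D1:**
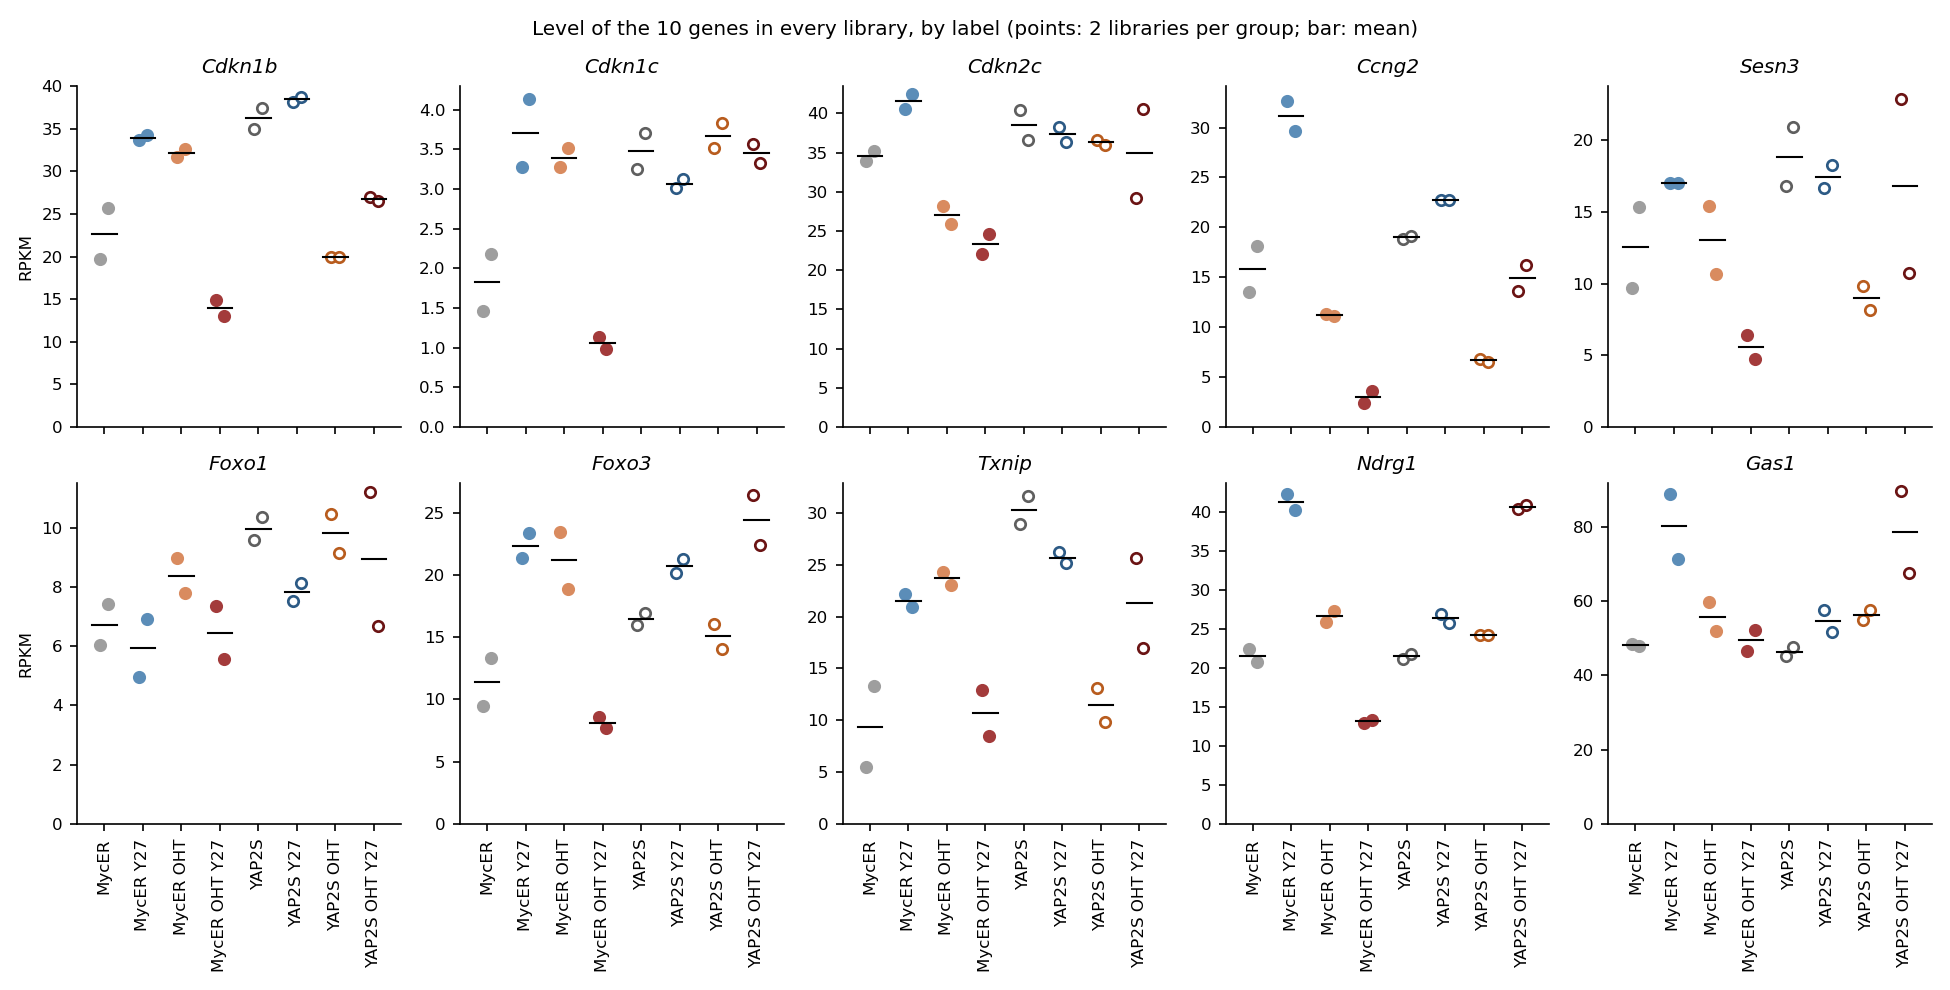
RPKM (vertical axis, from 0) of each of the 10 genes in every library, by labelled group (horizontal axis). Points are the 2 libraries of a group, filled for MycER and open for YAP2S labels, and the bar is their mean. The libraries labelled MycER OHT Y27 are the lowest for 7 genes, and for Ccng2 every group mean with OHT (2.97 to 14.9) is below every one without (15.8 to 31.1).

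Ccng2 encodes cyclin G2, an unconventional cyclin that goes with cell cycle arrest and is a classic FOXO target. It had the widest range of the 10 genes, 10.5-fold between its highest and lowest group mean. Its level was 13.5 and 18.1 RPKM in MycER, 32.7 and 29.6 in MycER Y27, 18.8 and 19.1 in YAP2S, and 22.8 and 22.8 in YAP2S Y27. Among the OHT libraries it was 11.3 and 11.1 in MycER OHT, against 2.37 and 3.58 in MycER OHT Y27, 6.82 and 6.52 in YAP2S OHT, and 13.6 and 16.2 in YAP2S OHT Y27. Both libraries with OHT were below both without it in each of the 4 labelled pairs, though over all libraries the highest with OHT (16.2) overlapped the lowest without (13.5). Averaged over OHT, Ccng2 fell by 1.36 on the log2 scale (SE 0.08, adjusted p = 9.41e-07), and this held in all 5 scalings and without any 1 library. It fell in each labelled pair, with changes of -0.45 in MycER (adjusted p = 0.0426), -3.03 in MycER with Y27 (adjusted p = 1.8e-07), -1.38 in YAP2S (adjusted p = 0.000256) and -0.59 in YAP2S with Y27 (adjusted p = 0.0314). The first of these was lost without any of 11 of the 16 libraries (adjusted p of 0.0532 to 0.245, the change -0.25 without MycER replicate 2) and the last without any of 5 (0.0524 to 0.159). The last was also lost under quantile normalization (-0.48, adjusted p = 0.0585) and cyclic loess (-0.44, adjusted p = 0.0805), while the falls in the other pairs held in every scaling. With Y27, Ccng2 rose in MycER, by 0.95 on the log2 scale (SE 0.16, adjusted p = 0.00213), and in YAP2S OHT, by 1.05 (adjusted p = 0.00167), and it fell in MycER OHT, by 1.64 (adjusted p = 8.17e-05).

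Cdkn1b encodes p27, which binds cyclin E and CDK2 and is the best known inhibitor of quiescent fibroblasts. It was at 19.7 and 25.7 RPKM in MycER, 33.6 and 34.3 in MycER Y27, 35.0 and 37.5 in YAP2S, and 38.1 and 38.7 in YAP2S Y27. With OHT it was at 31.6 and 32.6 in MycER OHT, against 14.8 and 12.98 in MycER OHT Y27, 19.97 and 19.9 in YAP2S OHT, and 26.95 and 26.5 in YAP2S OHT Y27. The lowest values were in MycER OHT Y27 and the highest in YAP2S Y27, and of the neighbours in the order of group means only YAP2S OHT and MycER overlapped. Averaged over OHT it fell by 0.52 on the log2 scale (SE 0.06, adjusted p = 5.96e-05), in all 5 scalings and without any 1 library. The labelled pairs did not share a direction: it rose by 0.50 in MycER (adjusted p = 0.0053), or by 0.31 (adjusted p = 0.0439) without MycER replicate 1, and fell in the others, with changes of -1.23 in MycER with Y27 (adjusted p = 6.23e-06), -0.83 in YAP2S (adjusted p = 0.000773) and -0.51 in YAP2S with Y27 (adjusted p = 0.011). All 4 calls held in every scaling, and the last was lost without YAP2S Y27 replicate 1 (adjusted p = 0.0715) or 2 (adjusted p = 0.0869). In the libraries without OHT, Cdkn1b rose with Y27 in MycER, by 0.57 (SE 0.11, adjusted p = 0.00525). Without treatment it was higher in YAP2S than in MycER, by 0.66 (adjusted p = 0.00371). With Y27 in both, the difference of Cdkn1b was 0.17 (adjusted p = 0.362 in limma on the 8 libraries without OHT). In YAP2S its change with Y27 was 0.08, with a 95% interval of -0.18 to 0.35.

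Cdkn1c encodes p57, the imprinted member of the same family, and was the least abundant of the 10 genes. It was at 1.46 and 2.18 RPKM in MycER, 3.27 and 4.14 in MycER Y27, against 1.13 and 0.982 in MycER OHT Y27, and between 3.01 and 3.83 in every library of the other 5 groups. The libraries of MycER and MycER OHT Y27 lay below those of all other groups. These low values rest on few reads, 5 in MycER replicate 1, where an exact Poisson interval for counting error alone runs from 0.474 to 3.41 RPKM, and 5 in MycER OHT Y27 replicate 2. Cdkn1c fell by 1.19 with OHT in MycER with Y27 (SE 0.16, adjusted p = 9.31e-05) and by 1.09 with Y27 in MycER OHT (adjusted p = 0.000486), and both held in every scaling. Its rises with OHT (0.65) and with Y27 (0.74) in MycER passed as deposited, with adjusted p of 0.00715 and 0.00807. The first was lost in 4 of the 5 scalings. The second was lost in limma on recovered reads (adjusted p = 0.0504) and on duplicate-corrected reads (adjusted p = 0.0602). Both were lost without MycER replicate 1 (0.46 and 0.56), and the second also without MycER Y27 replicate 2 (0.61). Averaged over OHT its change was -0.09 (SE 0.08, adjusted p = 0.448).

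Cdkn2c encodes p18, an INK4 inhibitor of CDK4 and CDK6. It was at 33.9 and 35.2 RPKM in MycER, 40.6 and 42.5 in MycER Y27, 28.2 and 25.8 in MycER OHT, against 22.0 and 24.6 in MycER OHT Y27. The YAP2S groups lay closer together, at 40.4 and 36.6 in YAP2S, 38.3 and 36.3 in YAP2S Y27, 36.6 and 36.0 in YAP2S OHT, and 29.3 and 40.6 in YAP2S OHT Y27. Both MycER groups with OHT were below every other library. Averaged over OHT, Cdkn2c fell by 0.34 (SE 0.07, adjusted p = 0.00226), in all 5 scalings and without any 1 library. In the labelled pairs it fell by 0.81 in MycER with Y27 (adjusted p = 0.000346) and by 0.35 in MycER (adjusted p = 0.0484), the latter lost without any of 14 of the 16 libraries (adjusted p of 0.0546 to 0.209). In the libraries labelled YAP2S its changes were -0.08 and -0.11, neither past the threshold. It did not pass in any of the 4 Y27 comparisons.

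Foxo3 and Foxo1 encode the transcription factors themselves, and Foxo3 is counted among the genes that FOXO proteins induce. Foxo3 was at 9.45 and 13.4 RPKM in MycER, 21.3 and 23.4 in MycER Y27, 16.02 and 17.0 in YAP2S, and 20.2 and 21.3 in YAP2S Y27. Among the OHT libraries it was at 23.5 and 18.9 in MycER OHT, against 8.56 and 7.68 in MycER OHT Y27, 16.1 and 14.1 in YAP2S OHT, and 26.5 and 22.4 in YAP2S OHT Y27. MycER OHT Y27 was below all other libraries, and the highest 4 group means, from YAP2S Y27 up to YAP2S OHT Y27, overlapped with their neighbours. Foxo3 rose with Y27 in MycER by 0.93 (SE 0.16, adjusted p = 0.00204) and in YAP2S OHT by 0.66 (adjusted p = 0.0201), and fell with Y27 in MycER OHT by 1.28 (adjusted p = 0.000214). It rose with OHT in MycER by 0.85 (adjusted p = 0.00186) and fell with OHT in MycER with Y27 by 1.36 (adjusted p = 3.16e-05). These 5 calls held in every scaling, and the rise in YAP2S OHT was lost without YAP2S OHT replicate 1 or 2 or YAP2S OHT Y27 replicate 1 (adjusted p = 0.0669, 0.176 and 0.134). Averaged over OHT the change of Foxo3 was -0.10 (SE 0.08, adjusted p = 0.355).

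Foxo1 had the narrowest range of the 10 genes, with 1.68-fold between its highest and lowest group mean. Its 16 libraries ranged from 4.95 RPKM in MycER Y27 replicate 1 to 11.2 in YAP2S OHT Y27 replicate 1, and all neighbours in the order of group means overlapped except MycER and YAP2S Y27. As deposited, it passed in none of the 12 comparisons between a pair of groups. Its change with OHT in MycER with Y27 passed under quantile normalization (0.45, adjusted p = 0.0499) and cyclic loess (0.46, adjusted p = 0.0425). Averaged over the 4 pairs of labels it was higher in YAP2S than in MycER by 0.37 (SE 0.11, adjusted p = 0.0259), a call lost in all 5 scalings. Within the 8 libraries without OHT the same average was 0.44 (adjusted p = 0.0316). Averaged over OHT its change was 0.13, with a 95% interval of -0.13 to 0.38.

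Txnip encodes a thioredoxin-binding arrestin that restrains glucose uptake and is induced by FOXO1 and by MondoA. It was at 5.46 and 13.3 RPKM in MycER, 22.2 and 20.9 in MycER Y27, 29.0 and 31.6 in YAP2S, and 26.2 and 25.1 in YAP2S Y27. With OHT it was at 24.3 and 23.1 in MycER OHT, against 12.9 and 8.45 in MycER OHT Y27, 13.2 and 9.85 in YAP2S OHT, and 25.7 and 17.0 in YAP2S OHT Y27. The 3 groups MycER, MycER OHT Y27 and YAP2S OHT were lowest and overlapped in their order. Without treatment, Txnip was higher in YAP2S than in MycER by 1.70 (SE 0.31, adjusted p = 0.00454, 1.46 relative to the median of all genes). This held in every scaling and without any 1 library, with 1.13 without MycER replicate 1. With Y27 in both, the difference of Txnip was 0.24 (adjusted p = 0.627 in limma on the 8 libraries without OHT). Averaged over OHT its change was -0.31 (SE 0.15, adjusted p = 0.149). With OHT it rose in MycER by 1.36 (adjusted p = 0.00485), or by 0.79 (adjusted p = 0.0419) without MycER replicate 1, and fell in YAP2S by 1.33 (adjusted p = 0.0144), the latter lost without YAP2S replicate 1 or 2 or YAP2S OHT replicate 2 (adjusted p = 0.0704, 0.113 and 0.146). Its rise with Y27 in MycER, by 1.23 (adjusted p = 0.0177), was lost on recovered reads, and lost without MycER replicate 1 (0.65, adjusted p = 0.142) or either MycER Y27 library (adjusted p = 0.0827 and 0.0798). MycER replicate 1 held 27 reads of this gene.

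Sesn3 encodes sestrin 3, a FOXO target that limits oxidative stress and mTORC1. It was at 9.72 and 15.3 RPKM in MycER, 17.0 and 17.0 in MycER Y27, 16.8 and 20.9 in YAP2S, and 16.6 and 18.3 in YAP2S Y27. Among the OHT libraries it was at 15.4 and 10.7 in MycER OHT, against 6.38 and 4.77 in MycER OHT Y27, 9.83 and 8.16 in YAP2S OHT, and 22.9 and 10.7 in YAP2S OHT Y27. The 2 libraries of YAP2S OHT Y27 lay far apart, and all neighbours in its order overlapped above the lowest group, MycER OHT Y27. Averaged over OHT it fell by 0.63 (SE 0.15, adjusted p = 0.00712), in all 5 scalings and without any 1 library. It fell by 1.47 with OHT in MycER with Y27 (adjusted p = 0.00173), also in every scaling, and by 0.99 in YAP2S (adjusted p = 0.0473), which was lost under cyclic loess and without any of 12 of the 16 libraries (adjusted p of 0.0561 to 0.292). The gene length behind the deposited values, 2159 bases, is far below the 15269 bases of its exons in GENCODE M21. The lengths behind Ccng2 (2562 against 5458 bases), Foxo3 (3480 against 7571) and Foxo1 (5555 against 8665) were also well below.

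Ndrg1 encodes a differentiation and stress protein that hypoxia induces and Myc represses. It was at 22.4 and 20.8 RPKM in MycER, 42.3 and 40.3 in MycER Y27, 21.2 and 21.8 in YAP2S, and 26.96 and 25.8 in YAP2S Y27. With OHT it was at 25.9 and 27.3 in MycER OHT, against 12.99 and 13.3 in MycER OHT Y27, 24.3 and 24.2 in YAP2S OHT, and 40.4 and 40.9 in YAP2S OHT Y27. MycER Y27 and YAP2S OHT Y27 lay above all other libraries, and MycER OHT Y27 lay below them. Ndrg1 rose with Y27 in MycER by 0.90 (SE 0.08, adjusted p = 3.05e-05) and in YAP2S OHT by 0.72 (adjusted p = 0.000193), and fell with Y27 in MycER OHT by 0.96 (adjusted p = 6.46e-05). In YAP2S its change with Y27 was 0.28, with a 95% interval of 0.09 to 0.47 and an adjusted p of 0.191. With Y27 and no OHT it was lower in YAP2S than in MycER, by 0.63 (adjusted p = 0.000417). Averaged over Y27, Ndrg1 rose by 0.24 (SE 0.04, adjusted p = 0.00311), and by 0.59 (adjusted p = 0.00172) within the 8 libraries without OHT. The calls in this paragraph that were fitted on all 16 libraries held in every scaling and without any 1 library.

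Gas1, named for its rise in growth-arrested fibroblasts, encodes a membrane protein that binds hedgehog ligands. It was at 48.5 and 47.8 RPKM in MycER, 88.9 and 71.2 in MycER Y27, 45.2 and 47.5 in YAP2S, and 57.7 and 51.7 in YAP2S Y27. Among the OHT libraries it was at 59.8 and 51.8 in MycER OHT, against 46.5 and 52.3 in MycER OHT Y27, 54.8 and 57.6 in YAP2S OHT, and 89.5 and 67.6 in YAP2S OHT Y27. As for Ndrg1, MycER Y27 and YAP2S OHT Y27 lay above the rest, and the other neighbours in the order overlapped except YAP2S and MycER. Gas1 rose with Y27 in MycER by 0.71 (SE 0.15, adjusted p = 0.00589), in every scaling, and this was lost without MycER Y27 replicate 1 (0.55, adjusted p = 0.0595). Averaged over Y27 it rose by 0.31 (adjusted p = 0.016), in every scaling and without any 1 library. Averaged over OHT its change was 0.08, with a 95% interval of -0.09 to 0.24. With up to 0.94 reads per base it is the member closest to the ceiling of the values, against at most 0.595 in the other 9.

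Averaged over OHT, 5 of the 10 genes fell and none rose, beside 19.3% of all tested genes that fell and 13% that rose. Ccng2, Sesn3, Cdkn1b and Cdkn2c fell in every scaling. Ndrg1, at -0.13, was lost in all 5. The median of the 10 genes was -0.22 against -0.04 for all genes. Foxo1, Foxo3, Cdkn1c, Txnip and Gas1 were between -0.31 and 0.13 and did not pass, as the plot of the OHT average shows. Without MycER replicate 1, the shallowest library, Txnip passed (-0.45, adjusted p = 0.00746).

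**Figure D2:**
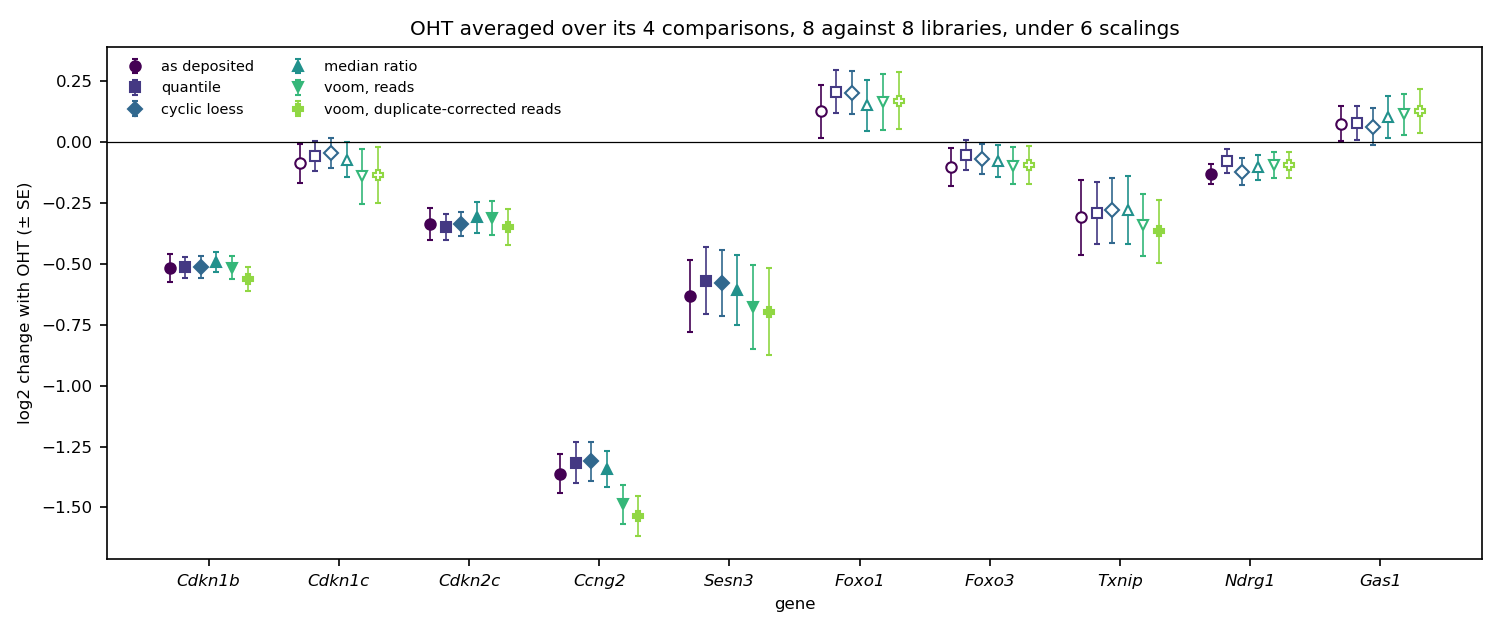
Log2 change with OHT (vertical axis, ± SE) averaged over the 4 labelled pairs, 8 libraries against 8, for each of the 10 genes (horizontal axis) as deposited and under 5 other scalings. Filled symbols passed an adjusted p of 0.05. Ccng2 is lowest under all 6, at -1.36 as deposited, and Cdkn1b, Cdkn2c and Sesn3 are filled under all 6.

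The 4 labelled OHT pairs differed from each other. In MycER, 5 genes rose and 2 fell with OHT, beside 31.6% and 13.3% of all genes, and the all-gene median was 0.22. Cdkn1b, Foxo3 and Txnip rose and Ccng2 and Cdkn2c fell in every scaling. In MycER with Y27, 9 of 10 fell and none rose, beside 33.5% and 16.6%, with a median of -1.21 for the 10 genes and -0.16 for all. There 8 held in every scaling, with Txnip lost under quantile normalization, and Foxo1, at 0.11, was the exception. In YAP2S, 4 fell and none rose (8.01% and 5.76% of all genes), of which Cdkn1b, Ccng2 and Txnip held in every scaling. In YAP2S with Y27, 2 rose and 2 fell (5% and 10%), of which the fall of Cdkn1b and the rise of Ndrg1 held. The summed level of 15 proliferation markers moved with the MycER OHT Y27 libraries, where 7 of the 10 genes had their lowest mean: it was 794 to 880 RPKM there, 473 to 517 in MycER Y27, and between 411 and 685 in all libraries of the other groups. The same libraries were among the shallowest. The summed level of 7 macrophage markers, nearly all of it Cd14 and Cd68, was 16.5 to 16.8 RPKM in MycER OHT Y27, 14.2 to 27.4 in MycER, 43.6 to 51.9 in MycER Y27 and 43.9 to 52.2 in YAP2S OHT Y27, while Ptprc and Emr1 were near 0. The part of proliferation, depth and these markers in the changes was not tested.

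**Figure D3:**
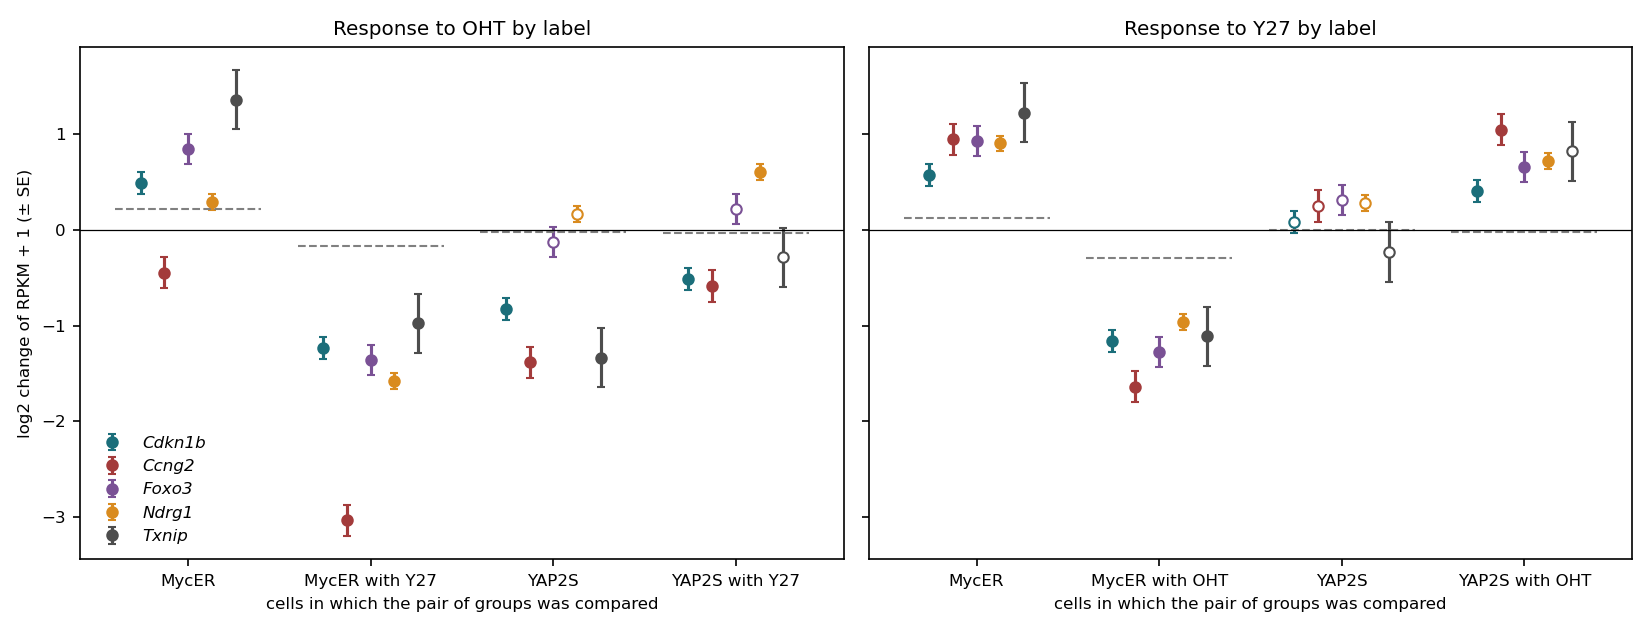
Log2 change of RPKM + 1 (vertical axis, ± SE) with OHT (left) and with Y27 (right) for Cdkn1b, Ccng2, Foxo3, Ndrg1 and Txnip in the 4 labelled pairs (horizontal axis). Filled symbols passed an adjusted p of 0.05, and the dashed lines are the median of all tested genes. With Y27 all 5 are above 0 in MycER and in YAP2S with OHT, below 0 in MycER with OHT, and none is filled in YAP2S.

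With Y27, 7 of the 10 genes rose in MycER cells without OHT and none fell, beside 13.4% of all genes that rose and 4.47% that fell. The median was 0.73 for the 10 genes against 0.13 for all. Ccng2, Foxo3, Ndrg1, Cdkn1b and Gas1 held in every scaling, and Cdkn1c and Txnip did not on recovered reads. Fitted on the 8 libraries without OHT alone, the same number, 7, passed, but on the 4 libraries of this comparison alone 1 passed. In YAP2S cells none of the 10 passed, beside 0.407% of all genes that rose and 0.261% that fell, and their changes lay between -0.31 (Foxo1) and 0.31 (Foxo3). On the 4 libraries of that comparison alone 4 passed, Ccng2 (0.25), Foxo3 (0.31) and Ndrg1 (0.28) higher and Txnip (-0.23) lower. The shares of all genes in this paragraph are of the fit on all 16 libraries. Counts from fits on fewer libraries therefore have no share beside them and are not read as a result about the 10 genes. The difference between these responses, Y27 in YAP2S minus Y27 in MycER, ran from -1.46 (Txnip) to -0.15 (Foxo1). Its median was -0.58 for the 10 genes and -0.13 for all tested genes, and the 10 values rest on the same libraries. The difference passed for 1 gene, Ndrg1 (-0.62, SE 0.12, adjusted p = 0.0356), beside 0.207% of all genes lower and 0.361% higher. That call was lost in all 5 scalings and without any of 12 of the 16 libraries (adjusted p of 0.0562 to 0.25), and without MycER replicate 2 the adjusted p of Cdkn1b, Cdkn1c, Ccng2, Foxo3 and Txnip was between 0.00455 and 0.0219. Between the libraries labelled MycER OHT and MycER OHT Y27, where Ctgf and Cyr61 ran opposite to the other Y27 pairs, 7 genes fell with the Y27 label and none rose (36.4% and 10.5% of all genes, all-gene median -0.29), of which Cdkn1b, Cdkn1c, Ccng2, Foxo3 and Ndrg1 held in every scaling. In those labelled YAP2S OHT, 4 rose and none fell (4.97% and 6.40%), and Cdkn1b, Ccng2, Foxo3 and Ndrg1 all held in every scaling. Cdkn1b in this pair was lost without any of 11 of the 16 libraries (adjusted p of 0.0575 to 0.205). Averaged over the 4 pairs, 2 rose, Ndrg1 and Gas1, and none fell, beside 3.51% and 8.54% of all genes. Within the 8 libraries without OHT the average rose for 4, Ccng2 (0.60), Foxo3 (0.62), Ndrg1 (0.59) and Gas1 (0.47).

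**Figure D4:**
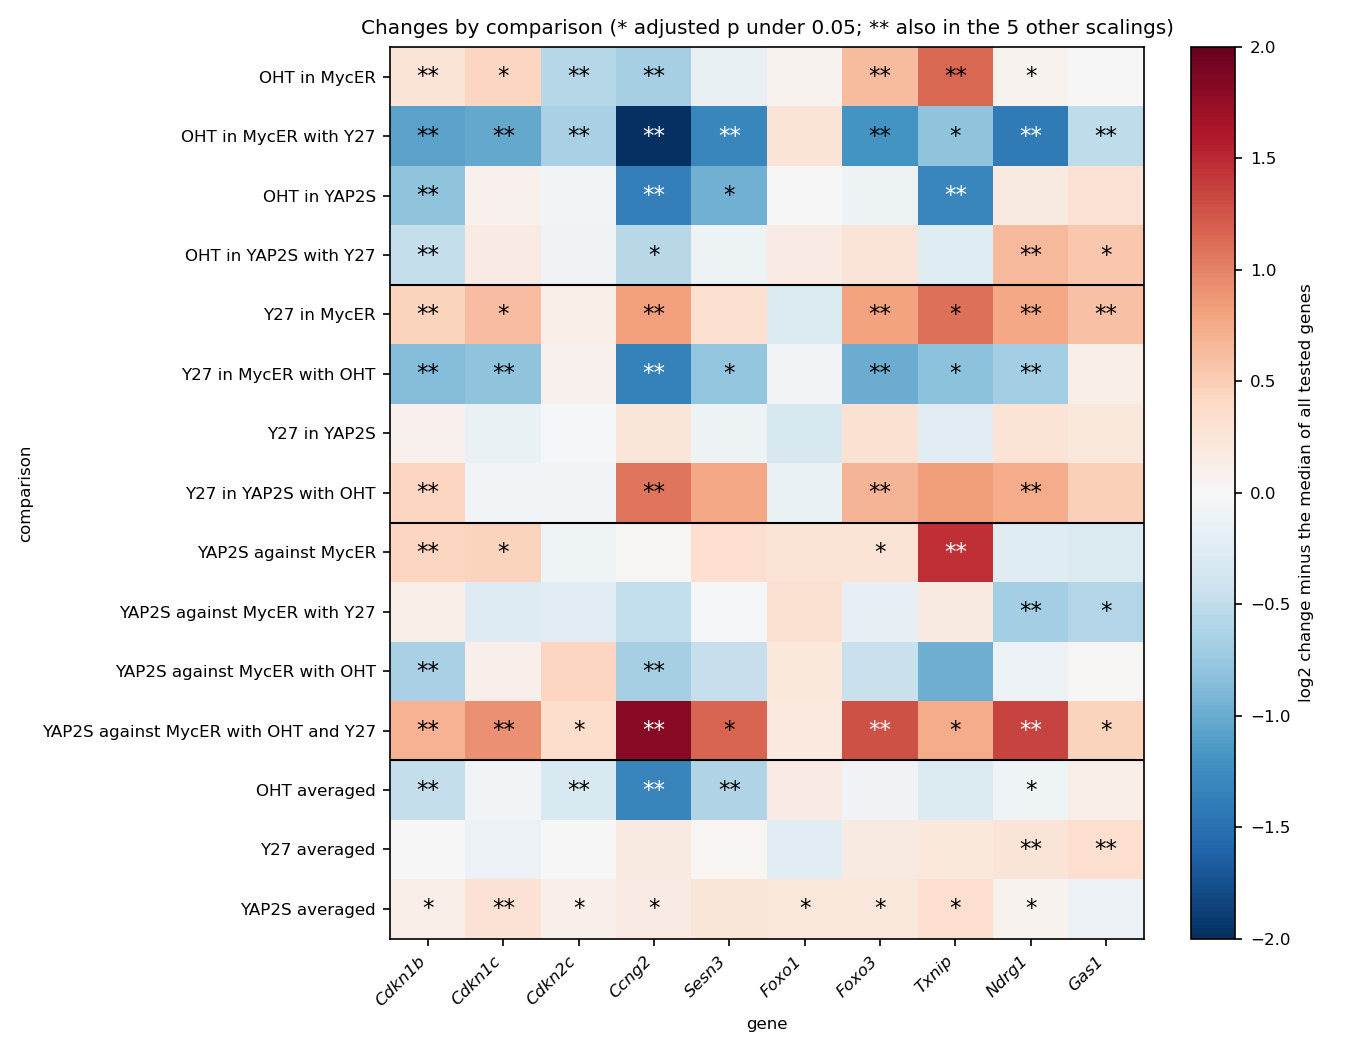
Log2 change minus the median of all tested genes (colour, red higher, blue lower, from -2 to 2) for each of the 10 genes (horizontal axis) in 15 comparisons (vertical axis), with horizontal lines between OHT, Y27, YAP2S and the averages. Single asterisks mark an adjusted p under 0.05 and double ones calls that also passed in the 5 other scalings. The darkest blue cell is Ccng2 for OHT in MycER with Y27, at -2.87, which lies beyond the scale.

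Between untreated populations, 4 genes were higher in YAP2S than in MycER and none lower, beside 24.8% and 8.43% of all genes and an all-gene median of 0.24. Cdkn1b and Txnip held in every scaling, and Cdkn1c did not. Foxo3 was lost in all 5 and without MycER replicate 1 (0.28, adjusted p = 0.272), the library of 1.76 M reads. With Y27 in both, none was higher and 2 were lower (10.6% and 5.43% of all genes), Ndrg1 in every scaling and Gas1 in 3 of the 5. Ccng2 (31.1 RPKM in MycER Y27, 22.8 in YAP2S Y27) did not pass as deposited but passed in all 5 other scalings. With OHT, none was higher as deposited and 2, Ccng2 and Cdkn1b, were lower (4.34% and 6.72%), both in every scaling. Of these, Ccng2 was lost without any of the 4 libraries compared (adjusted p of 0.0917 to 0.16) and Cdkn1b without MycER OHT replicate 2 (adjusted p = 0.0509). With OHT and Y27, 9 were higher and none lower (32.8% and 14.2%), of which 5 held in every scaling. Without YAP2S OHT Y27 replicate 1 the difference of Sesn3 went from 1.36 to 0.84, and without replicate 2 that of Cdkn2c went from 0.55 to 0.32. Averaged over the 4 pairs of labels, 8 were higher and none lower, beside 27.2% and 6.93%, but only Cdkn1c held in every scaling. Within the 8 libraries without OHT, the average was higher for Txnip (0.97, adjusted p = 0.0184), Foxo1 (0.44) and Cdkn1b (0.42, adjusted p = 0.0141) and lower for Ndrg1 (-0.32, adjusted p = 0.00945) and Gas1 (-0.30, adjusted p = 0.0362). Ndrg1 was higher in YAP2S over all labels and lower without the OHT libraries. Its direction therefore rests on whether the OHT libraries, in which Bex1 ran opposite by label, are included.

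The tests of a difference between OHT responses give the same contrast in another form, since they share all their groups with the pairs above. From MycER to MycER with Y27 the OHT response was lower for 8 genes and higher for none, beside 39.1% and 12.3% of all genes and an all-gene median of -0.43. Of these, 6 held in every scaling, among them Ccng2 (-2.59), Txnip (-2.34) and Foxo3 (-2.21). In YAP2S the same test passed for none of the 10 genes, beside 0.0691% of all genes higher and 0.376% lower. From MycER to YAP2S, without Y27, the OHT response was lower for 4 genes, Txnip (-2.70), Cdkn1b (-1.33), Foxo3 (-0.97) and Ccng2 (-0.94), and higher for none, beside 26.1% and 12.4%. Txnip and Cdkn1b held in every scaling. In each labelled pair the libraries with and without OHT also differed in Bex1, so the OHT response and the difference that Bex1 marks cannot be told apart in these tests.

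Genes of the wider pathway were counted from lists, against shares of all tested genes of 13% that rose and 19.3% that fell averaged over OHT, with a median of -0.04. Of 28 tested genes on a list of other FOXO targets, 3 rose and 9 fell averaged over OHT, with a median of -0.14. In the 5 scalings 4 rose and 9 to 12 fell. The DNA damage gene Gadd45a fell by 0.58, sestrin 1 (Sesn1) by 0.32 and catalase (Cat) by 0.32, while Ccnd2, a cyclin that FOXO represses, rose by 0.47, all in every scaling. Of 21 tested genes on a list of other quiescence and growth arrest genes, 1 rose and 10 fell, with a median of -0.27, and 8 to 12 fell in the scalings. There Klf4 fell by 0.56, the antiproliferative gene Btg1 by 0.30 and the Myc antagonist Mxd4 by 0.30, while Mxi1, another Max partner, rose by 0.57. Of 14 genes that act on p27, 3 rose and 2 fell, with a median of 0.05. Skp2, which targets p27 for degradation, rose by 0.32 and the cyclins Ccne1 and Ccne2 rose by 0.66 and 0.62, all in every scaling, while Cops5, a subunit of the COP9 signalosome, fell by 0.20 as deposited and in none of the 5 scalings. Of 18 inputs from PI3K and AKT, 1 rose and 4 fell, shares near those of all genes. Of 15 proliferation markers none passed in either direction averaged over OHT as deposited, and 0 to 2 passed in each direction in the scalings.

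Beside Txnip, its relative Arrdc3 fell by 0.59 averaged over OHT and rose by 1.22 with Y27 in MycER. Mlxip, which encodes MondoA, rose by 0.57 averaged over OHT, while Mlx fell by 0.26. Of 10 tested Txnip partners, 1 rose and 2 fell averaged over OHT, and 3 rose and 1 fell with Y27 in MycER. Beside Ndrg1, its relative Ndrg4 fell by 0.73 averaged over OHT (adjusted p = 5.27e-06) and rose by 0.60 with Y27 in MycER (adjusted p = 0.00376). On the list of the NDRG family and hypoxia targets, Pdk1 rose by 0.63 averaged over OHT. Of 14 tested genes on that list, 1 rose and 3 fell averaged over OHT, and 3 rose and 1 fell with Y27 in MycER. Beside Gas1, the hedgehog receptor Ptch1 rose by 0.67 and the coreceptor Cdon fell by 0.45 averaged over OHT. With Y27 in MycER, where Gas1 rose, Cdon fell by 0.49 and Smo, of the same list, by 0.40. Of 7 tested hedgehog partners, 2 rose and 1 fell averaged over OHT, and none rose and 2 fell with Y27 in MycER. These changes of the named genes held in every scaling. Averaged over OHT, 13% of all tested genes rose and 19.3% fell. With Y27 in MycER without OHT, 13.4% of all tested genes rose and 4.47% fell. Of the 21 other growth arrest genes 8 rose and 2 fell, and 5 to 7 rose in the scalings. Klf4 rose by 1.76, Gas7 by 1.72 and Btg1 by 0.75, while Gadd45g fell by 3.57, each in every scaling. Of the 28 other FOXO targets 6 rose and 3 fell, but 3 to 5 rose and 3 to 5 fell in the scalings. Sesn1 rose by 1.07 and the ubiquitin ligase Fbxo32 by 1.04, and Ccnd1, repressed by FOXO, fell by 0.79, while Pdk4, a FOXO target of muscle and liver, fell by 1.22. Of the 15 proliferation markers 2 fell, Rrm2 by 1.03 and Cdk1 by 0.57, and none rose.

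The genes most like a member over the 8 group means were found among 9358 abundant genes by Pearson correlation, as a description over 8 groups that share depth and compression. Ccng2 was most like Armcx1, Fam214b and Pld2 (r of 0.993, 0.991 and 0.991), Cdkn1b like Pcyt1a, Kifap3 and Sertad3 (0.997, 0.994 and 0.991), and Foxo3 like Sphk2, Jun and Fbxl20 (0.992, 0.99 and 0.988). Ndrg1 was most like Tgfbi, Ypel2 and Glmp (0.993, 0.988 and 0.987), and Txnip like Ralgapb, Ptprm and Kif16b (0.987, 0.984 and 0.98). No member was among the 3 nearest genes of another.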

How the data were processed

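RNA of serum-starved mouse fibroblasts was sequenced in 16 libraries, 2 for each of 8 labelled groups. Per the labels the authors used a TruSeq kit without selection on poly(T), and the submitters' processing notes name TopHat, TopHat2 2.0.8, SAMtools, featureCounts 1.4.5-p1 and the build mm9. The annotation and the use of strand are not given in the sources used here. The deposited table holds RPKM for 21671 genes. The labels do not name this unit, and it was read from the values.

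Whole reads were recovered from the steps of low values for 18176 genes, where 99.7% of values above 0 lay within 0.01 reads of a whole number. Libraries held 1.76 to 15.7 M reads, and counting intervals cover counting error only. Genes with at least 1 RPKM in at least 2 libraries, 13028 in all, were tested with limma 3.58.1 in R 4.3.3 (trended variance) on log2(RPKM + 1), which understates changes of low genes. All 16 libraries and 8 group means were fitted, leaving 8 residual degrees of freedom. Tests were two-sided with Benjamini-Hochberg adjustment within each of 19 comparisons. Fits were tested on simulated data. The 5 other scalings were quantile normalization, cyclic loess, median-ratio scaling, voom on recovered reads and voom on reads corrected for positions filled more than once. The last was chosen after seeing the data. Other alternatives were another pseudocount or filter, no variance trend, a replicate block, fewer libraries and each library left out.

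The 10 genes and the lists of pathway and marker genes were chosen with earlier results of these data known. All 10 genes were tested in every comparison, though not each is named in each. Of each pathway list, at most 4 genes with the smallest adjusted p are named, and of each gene's likeness the 3 nearest genes with a mean of at least 5 RPKM. Promoter sequences came from RefSeq.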

Additional observations from a re-analysis of the deposited data

Results flagged for a closer look

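Responses that differed between groups by a test of the difference itself are given here as log2 differences with SE and limma's adjusted p. The response to OHT was lower with Y27 than without it, among the libraries labelled MycER, for 8 genes. The differences were -1.73 for Cdkn1b (SE 0.16, adjusted p = 1.48e-05), -1.84 for Cdkn1c (SE 0.23, adjusted p = 8.36e-05), -2.59 for Ccng2 (SE 0.23, adjusted p = 1.07e-05) and -1.53 for Sesn3 (SE 0.42, adjusted p = 0.0103). They were -2.21 for Foxo3 (SE 0.22, adjusted p = 2.44e-05), -2.34 for Txnip (SE 0.44, adjusted p = 0.00118), -1.87 for Ndrg1 (SE 0.12, adjusted p = 1.65e-06) and -0.88 for Gas1 (SE 0.21, adjusted p = 0.00403). The median of all genes was -0.43 in this test, and Sesn3 and Gas1 did not pass in every scaling. Between the libraries labelled MycER OHT and MycER OHT Y27, Ctgf (63.9 and 149.9 RPKM) ran opposite to the other Y27 pairs.

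The response to OHT was lower in the libraries labelled YAP2S than in those labelled MycER for 4 genes, by -1.33 for Cdkn1b (SE 0.16, adjusted p = 0.000221), -0.94 for Ccng2 (SE 0.23, adjusted p = 0.00945), -0.97 for Foxo3 (SE 0.22, adjusted p = 0.00717) and -2.70 for Txnip (SE 0.44, adjusted p = 0.00128). The median of all genes was -0.26, and Ccng2 and Foxo3 did not pass in every scaling. The response to Y27 was lower in YAP2S than in MycER for Ndrg1, by -0.62 (SE 0.12, adjusted p = 0.0356), which passed in none of the 5 scalings.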

How the results depend on the processing

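Of the 87 calls on the 10 genes, 57 passed in all 5 scalings. Some values that were not called as deposited passed in all 5. These were Ccng2 for YAP2S against MycER with Y27, and Cdkn2c and Txnip for YAP2S against MycER with OHT. The numbers below are how many of the 10 genes passed, and where a setting moved a number the cause was not tested unless it is named. The shares of all tested genes under each setting are not given. A moved number therefore cannot be told apart from a change over the whole table. Under quantile normalization 2 passed for OHT in YAP2S with Y27, 2 for YAP2S against MycER, 4 for the same with OHT, 1 for YAP2S averaged, 0 for Y27 by YAP2S and 2 for OHT by YAP2S. Under cyclic loess these were 2, 2, 4, 1 and 0 for the first 5. Under median-ratio scaling 4 passed for YAP2S against MycER with OHT, 3 for YAP2S averaged and 0 for Y27 by YAP2S. With voom on recovered reads 2 passed for YAP2S against MycER, 5 for the same with OHT, 3 for YAP2S averaged, 1 for OHT by Y27 in YAP2S and 0 for Y27 by YAP2S, and on duplicate-corrected reads 2, 5, 2, 1 and 0. Without a variance trend 0 passed for Y27 by YAP2S. Fitted on the 4 or 8 libraries of a comparison alone, which leaves fewer degrees of freedom, 0 passed for OHT in MycER, 0 for OHT in YAP2S with Y27, 1 for Y27 in MycER, 4 for Y27 in YAP2S, 0 for Y27 in YAP2S with OHT, 0 for YAP2S against MycER, 6 for the same with OHT and 0 for Y27 by YAP2S. On the 8 libraries without OHT 4 passed for Y27 averaged, 5 for YAP2S averaged and 0 for Y27 by YAP2S. There YAP2S averaged changed sign for Cdkn2c (-0.000196), Ccng2 (-0.084), Ndrg1 (-0.32, adjusted p = 0.00945) and Gas1 (-0.30, adjusted p = 0.0362), as limma gave them.

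Leaving out 1 library at a time, 4 to 7 passed for OHT in MycER, 8 to 9 with Y27, 2 to 4 in YAP2S and 1 to 5 in YAP2S with Y27. For Y27 they were 5 to 8 in MycER, 5 to 7 with OHT, 0 to 0 in YAP2S and 2 to 8 in YAP2S with OHT, with 8 without YAP2S OHT Y27 replicate 2. For YAP2S against MycER they were 2 to 5, with Y27 1 to 3, with OHT 0 to 5 and with both 8 to 10. The averages gave 4 to 6 for OHT, 2 to 3 for Y27 and 5 to 9 for YAP2S. The differences gave 8 to 9 for OHT by Y27 in MycER, 0 to 2 in YAP2S, 0 to 6 for Y27 by YAP2S and 4 to 6 for OHT by YAP2S. Where 1 library of a group was left, it was assumed to vary like the other groups.

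Libraries with the same replicate number did not deviate together. Over 28 pairs of groups the correlation of their deviations ran from -0.327 to 0.432, with a median of -0.0154, and exceeded 0.1 in 8. With the replicate block 4 of the 87 calls were lost (Cdkn2c for OHT in MycER, Sesn3 for OHT in YAP2S, Cdkn1b for Y27 in YAP2S with OHT and Ndrg1 for Y27 by YAP2S) and 0 gained, and Y27 by YAP2S went from 1 to 0. The low reads of Cdkn1c, from 5 to 100 a library, limit its values most.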
